A study of Mus musculus with 8 samples.

Results

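The SLC25 family are the carrier proteins that move nucleotides, phosphate, amino acids, carboxylic acids and cofactors across the inner mitochondrial membrane. Its members were taken as every gene of the deposited table whose symbol begins with Slc25a followed by a number, leaving out Slc25a1 and Slc25a20. This gave 39 of the 41 family symbols, among 14012 genes in all. The data were read counts per gene from polyadenylated RNA of the quadriceps femoris (QF), a thigh muscle, of 8 mice. A skeletal muscle specific knockout of Grpel1 (Grpel1 smk -/- in the labels) was sequenced in 4 mice, and 4 Grpel1 flox/flox mice served as controls, 1 library per mouse. Grpel1 encodes a co-chaperone of mitochondrial HSP70, which pulls proteins into the mitochondrial matrix. The floxed allele was shared by both groups. Per the study's methods the knockout mice also carried a tamoxifen-inducible Cre recombinase under the promoter of human skeletal actin, and tamoxifen was given at a young age. The study used flox/flox mice with Cre but no tamoxifen and flox/flox mice with tamoxifen but no Cre, and the labels do not say which of these were sequenced. Whichever of Cre and tamoxifen the sequenced controls lacked cannot be told apart from the deletion. The promoter confines deletion to muscle fibres while the other cells of the muscle keep the gene. The age at sampling is not among the labels.

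Most of the carriers share one plan, a repeated pair of membrane helices around a path that opens in turn to either side of the inner membrane, and most exchange a substrate for another on the opposite side. Muscle depends on them because ATP made in the matrix leaves by ADP/ATP exchange, phosphate returns by its own carrier, and the reducing power of cytosolic NADH enters through the malate-aspartate shuttle. The carriers are themselves made in the cytosol and are inserted into the inner membrane by the TIM22 complex, not by the matrix import route in which GRPEL1 acts. Several substrates have more than 1 carrier gene, with different tissue preferences.

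Each library held between 16017565 and 20361144 counted read pairs, and the ranges of the groups overlapped. The read count of Grpel1 itself did not separate them. It was 861, 1087, 961 and 1017 reads in controls 1 to 4 and 1658, 1570, 1461 and 1508 in the libraries labelled knockout, which after scaling came to 64.1 to 71.2 and 59.9 to 71.9 CPM (counts scaled to library size). The log2 fold change was -0.07 (SE 0.08, adjusted p = 0.487 edgeR's quasi-likelihood F test, Benjamini-Hochberg over all genes, as for all adjusted p values here). The deleted exons are not given in the sources used here, so a gene-level count does not check the labels, and every direction below rests on the libraries as labelled. The TMM scaling factors, which correct for differences in RNA composition between libraries, separated the groups, with controls at 0.747 to 0.844 and libraries labelled knockout at 1.19 to 1.33. The summed level of 8 muscle fibre genes ran from 202988 to 259790 CPM in the controls and from 67354 to 96520 CPM in the libraries labelled knockout, and 6 of the 8 fell (among them Acta1 and Ckm) while Myh1 rose. Fewer fibres and less RNA per fibre cannot be told apart in bulk tissue, and the cause of the differing directions among these genes was not tested.

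Among the 39 carriers, 19 (48.7%) passed an adjusted p of 0.01, against 44.7% of all genes. There were 8 carriers (20.5%) higher in the libraries labelled knockout, where 23.6% of all genes were higher, and 11 (28.2%) lower, where 21.1% of all genes were lower. Another 8 of the 20 remaining carriers had an unadjusted p under 0.05, which made 27 in all. The share of carriers called was therefore close to that of the whole transcriptome, and the family did not move one way, with a median log2 fold change of -0.11 beside 0.07 for all genes. For 25 carriers the groups did not overlap (64.1%, against 53.4% of all genes), and 9 carriers (23.1%) were called with a change of 2-fold or more, against 17.5% of all genes. Of these 9, Slc25a18, Slc25a24, Slc25a5, Slc25a35 and Slc25a13 were higher, and Slc25a25, Slc25a30, Slc25a4 and Slc25a47 were lower. Slc25a18 had 7 of its 67 reads in the controls. The authors left out genes with few reads in total (the lowest total kept was 51), so this gene is in the table only through the group where it was high and its direction was fixed by that filter. Without it 18 carriers were called, of which 7 were higher and 4 were higher by 2-fold or more. Slc25a13 is still among these 4, and its call was lost in DESeq2 and in several other fits, given below. How many were higher and how many lower changed with the scaling. When library totals alone were used the median of all genes moved to 0.73. Then 24 carriers were called, and 21 of them were higher and 3 (Slc25a4, Slc25a25 and Slc25a30) were lower. Of all 14012 genes 9371 were called under that setting, 8498 higher and 873 lower. Later counts with library totals alone are to be read beside these. Of the other 8 carriers lower under TMM, Slc25a11, Slc25a26, Slc25a29, Slc25a42 and Slc25a47 kept their sign and lost the call, and Slc25a3, Slc25a12 and Slc25a15 changed sign. The 13 calls added by that setting were all higher. Measured from the median of all genes under that setting, all 19 called carriers had the same sign as under TMM (Slc25a3 -0.57, Slc25a12 -0.69 and Slc25a15 -0.53). The setting shifts all genes by about the same amount, so subtracting the median undoes it. These signs were therefore fixed in advance and are no check on the calls.

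**Figure D1:**
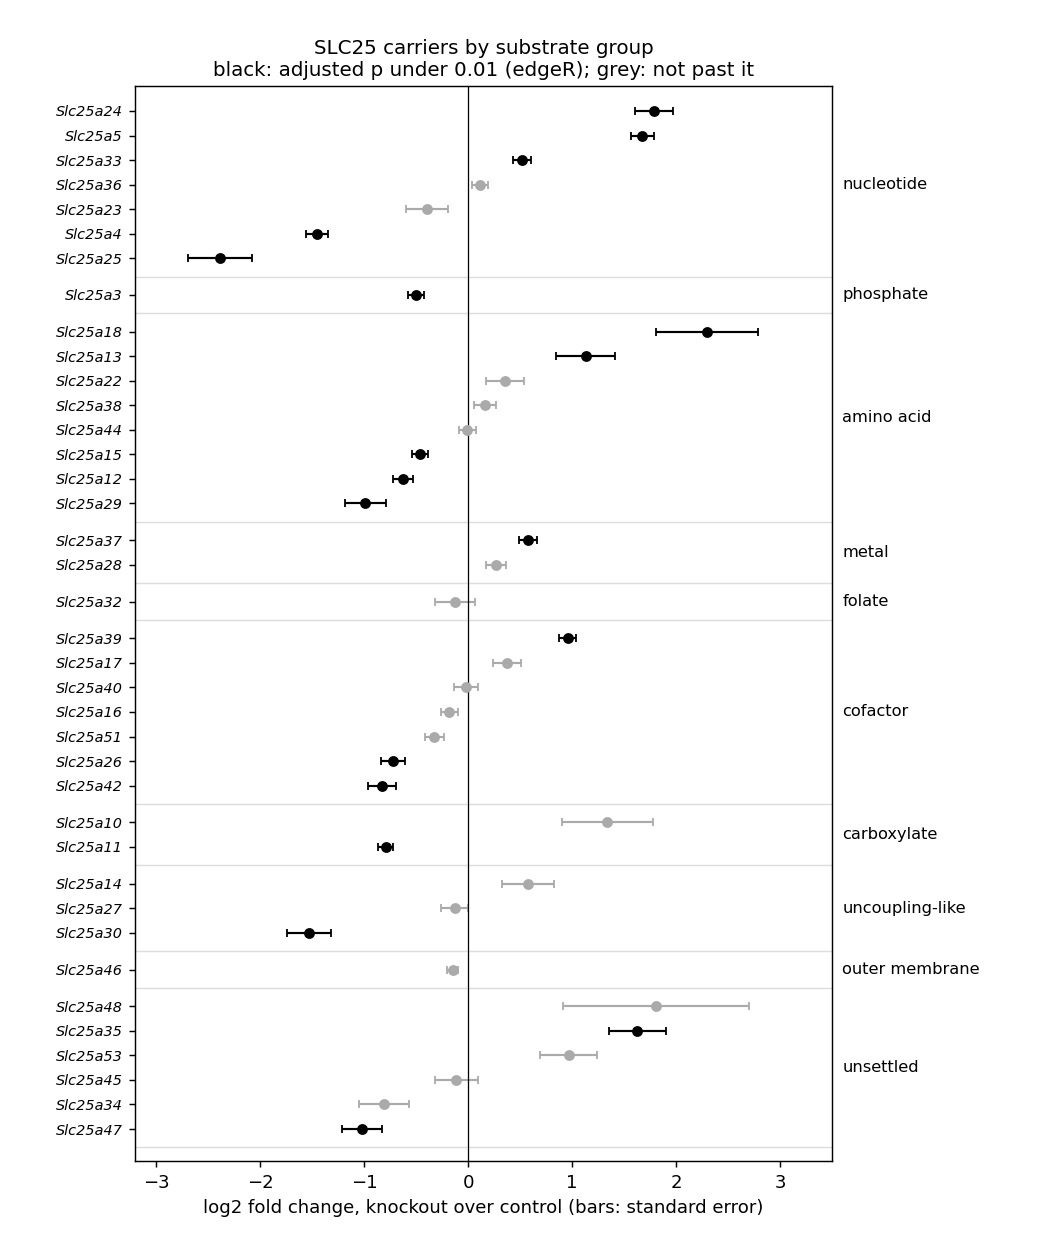
Log2 fold change of 38 of the 39 carriers in the libraries labelled knockout over the controls (horizontal axis, bars are the standard error, n = 4 per group), grouped by substrate; black points passed an adjusted p of 0.01 and grey points did not. The nucleotide carriers spread furthest, from -2.39 for Slc25a25 to 1.79 for Slc25a24, while Slc25a18 at 2.30 has a wide bar because it rests on few reads. Among the black points to the left of 0, Slc25a3, Slc25a12 and Slc25a15 move to the right of it when library totals alone are used.

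Of the 7 nucleotide carriers 3 were higher, 2 were lower and 2 did not pass the threshold, where 23.6% of all genes were higher and 21.1% lower. These shares of all genes are the background for the counts of every group and gene list below. The adenine nucleotide translocases exchange matrix ATP for cytosolic ADP, and their main muscle form Slc25a4 (ANT1, chr8:46207339-46211009, GRCm38, minus strand) was the most abundant carrier of this tissue. It stood at 4213, 4041, 4127 and 3469 CPM in controls 1 to 4 and at 1512, 1313, 1570 and 1388 CPM in libraries 1 to 4 labelled knockout. Every library labelled knockout was far below every control, and the level fell by 1.45 on the log2 scale (SE 0.11, adjusted p = 2.37e-06), to 0.365 of the control value. Slc25a5 (ANT2, chrX:36795597-36798808, plus strand), the form usual in dividing cells, moved the opposite way. It stood at 41.6, 45.1, 34.6 and 45.2 CPM in the controls and at 144, 142, 112 and 135 CPM in the libraries labelled knockout. The groups did not overlap, and the level rose 3.20-fold (log2 fold change 1.68, SE 0.11, adjusted p = 1.26e-06; 1.54 with the level of adipocyte genes as a covariate). Of 4 genes of satellite cells, the stem cells of muscle, 3 were also higher, and their part in this value was not tested.

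The genes are alike enough that the assignment of reads matters, so the same stretch of both is shown. The coding sequences of Slc25a4 and Slc25a5 are 894 bases each, and 692 of these (77.4%) are identical, with no identical run longer than 20 bases. The 60 bases that open the second coding exon, read 5′ to 3′ from the GENCODE M21 transcripts, carry capitals at the 11 positions where the genes differ. They lie at chr8:46209449-46209508 (minus strand) and chrX:36796843-36796902 (plus strand) of GRCm38.
Slc25a4: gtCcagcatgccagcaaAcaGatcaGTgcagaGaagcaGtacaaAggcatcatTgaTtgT
Slc25a5: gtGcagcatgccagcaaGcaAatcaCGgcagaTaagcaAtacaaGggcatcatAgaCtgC
No window of 75 bases of Slc25a4 was found in the transcripts of another gene. For Slc25a5, 27.9% of such windows also lay in transcripts of annotated pseudogenes, among them Slc25a5-ps. Because reads that map to several places were left out when the counts were made, the level of Slc25a5 may be understated in all libraries.

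The ratio within a library does not depend on any scaling. Slc25a4 counts exceeded those of Slc25a5 by 95.4-fold on average in the controls and by 10.9-fold in the libraries labelled knockout. Per kilobase of exon the ratios were 111 and 12.7. The log2 ratio of counts ran from 6.26 to 6.90 and from 3.21 to 3.80, a difference of -3.13 (two-sided exact permutation p = 0.0286, the lowest that 4 libraries against 4 allow; adjusted p = 0.0381 over 8 pairs of carriers). Both genes had already separated the groups, in opposite directions, which fixed this p, so it is no further support. The 8 pairs were chosen with earlier results of these data known, so the p values of their ratios here and below are descriptions. Slc25a4 alone made up 61.2% ± 1.7 of the counts on carriers in control libraries (SD, n = 4) and 42.1% ± 1.8 in the libraries labelled knockout. The share of Slc25a5 was 0.647% ± 0.104 and 3.89% ± 0.50. All 39 carriers together accounted for 0.513% ± 0.024 of the counts of a control library and for 0.433% ± 0.010 of those of a library labelled knockout.

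The calcium-regulated carriers, which exchange ATP-Mg for phosphate and so set the adenine nucleotide pool of the matrix, also went both ways. Slc25a25 stood at 122, 216, 94.0 and 148 CPM in the controls and at 38.2, 35.1, 16.9 and 21.1 CPM in the libraries labelled knockout. It was variable in both groups, yet the highest library labelled knockout was below the lowest control, and it fell by 2.39 on the log2 scale (SE 0.31, adjusted p = 1.08e-04). Its gene shares 1014 bases of its span with Naif1 on the opposite strand, whose log2 fold change was -0.02 (adjusted p = 0.932). Slc25a24 stood at 5.09, 5.37, 5.22 and 6.87 CPM in the controls and at 14.8, 22.8, 16.6 and 24.2 CPM in the libraries labelled knockout. All 4 of the latter were above all controls, and the level rose 3.46-fold (log2 fold change 1.79, SE 0.18, adjusted p = 1.98e-05). Slc25a23, the remaining measured member of this trio, ranged from 18.0 to 29.9 CPM in the controls and from 12.6 to 23.5 CPM in the libraries labelled knockout, overlapped, and was not called (log2 fold change -0.40, SE 0.20, adjusted p = 0.113). With the level of adipocyte genes as a covariate it was called, at -0.67 (adjusted p = 0.00401). The log2 ratio of Slc25a23 to Slc25a25 counts differed by 1.99 between the groups (exact permutation p = 0.0286, adjusted p = 0.0381). Per kilobase of exon Slc25a25 was the highest of the trio in the controls (34.2 ± 12.4 CPM per kb, against 7.34 ± 1.47 for Slc25a23 and 1.67 ± 0.24 for Slc25a24; SD, n = 4). In the libraries labelled knockout the levels were 6.56 ± 2.45, 5.58 ± 1.42 and 5.79 ± 1.36 CPM per kb, which lie within 1 SD of each other.

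Of the pyrimidine nucleotide carriers, which supply the matrix with precursors for mitochondrial DNA and RNA, Slc25a33 rose by 0.52 on the log2 scale (SE 0.09, adjusted p = 7.09e-04), from 17.1 ± 2.0 to 24.6 ± 0.7 CPM (SD, n = 4). Slc25a36 was not called, with controls at 23.0 to 26.1 CPM and libraries labelled knockout at 24.4 to 29.4 CPM. The ratio of this pair overlapped between the groups (difference of log2 ratio 0.42, exact permutation p = 0.0571, adjusted p = 0.0653), so a difference between the changes of these carriers was not shown.

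**Figure D2:**
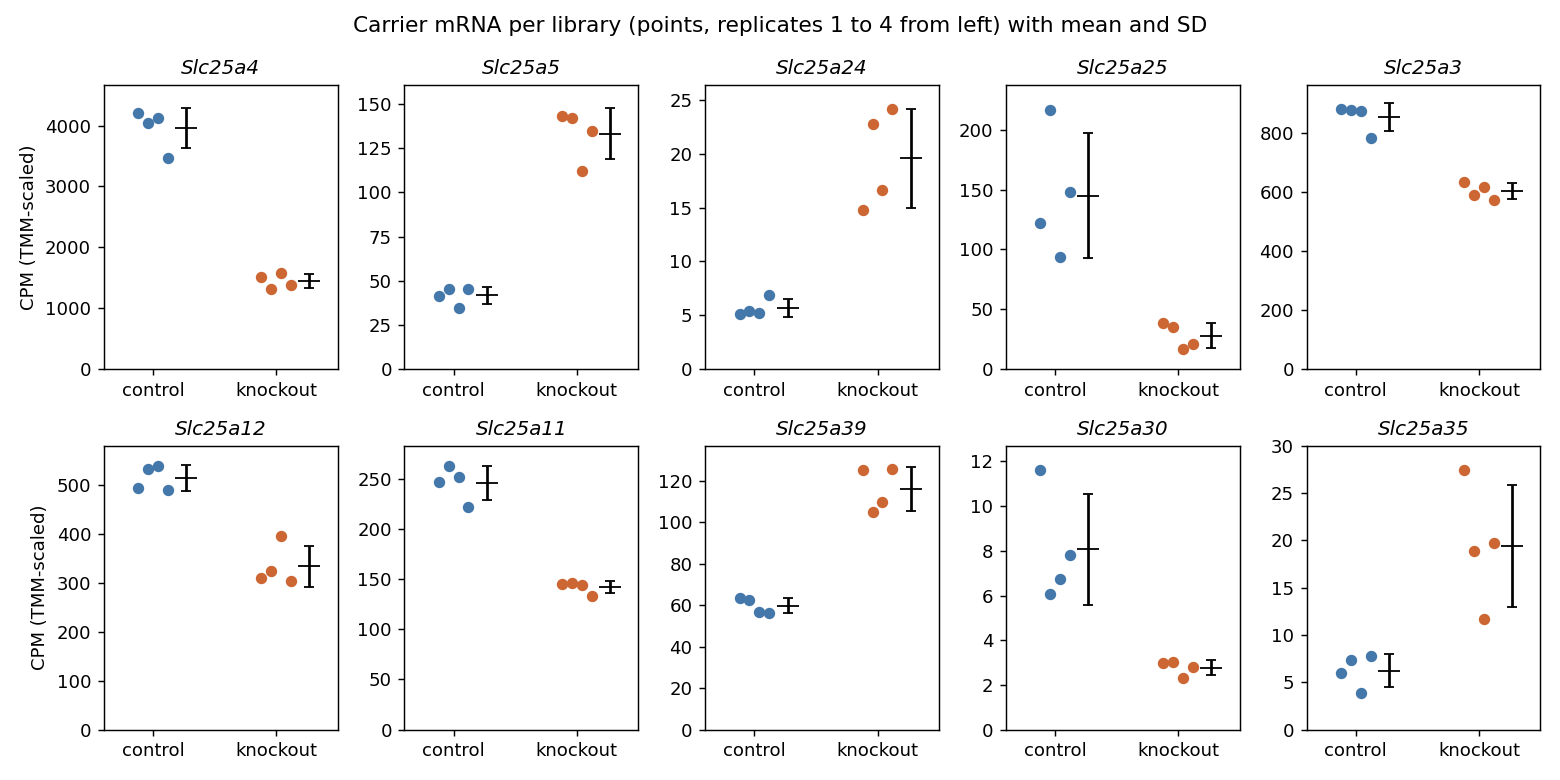
Level of 10 carriers in each library in TMM-scaled CPM on a linear axis from 0; points are single mice (replicates 1 to 4 from left to right) and the bars beside them are the mean and SD of 4. Slc25a4 and Slc25a25 lie lower and Slc25a5, Slc25a24, Slc25a35 and Slc25a39 higher in the libraries labelled knockout, with no overlap, and the spread of Slc25a25, Slc25a30 and Slc25a35 is wide next to that of Slc25a3 and Slc25a11. With library totals alone Slc25a3 and Slc25a12 are no longer lower.

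The phosphate carrier Slc25a3 brings inorganic phosphate into the matrix for ATP synthesis and was the second most abundant member per kilobase. It stood at 879, 877, 873 and 783 CPM in the controls and at 635, 588, 617 and 571 CPM in the libraries labelled knockout. The groups did not overlap, and it fell by 0.50 on the log2 scale (SE 0.08, adjusted p = 3.26e-04), whereas with library totals alone its log2 fold change was 0.17 (adjusted p = 0.0279). Its share of the counts on carriers was 13.2% ± 0.1 in the controls and 17.6% ± 0.3 in the libraries labelled knockout (SD, n = 4). Per kilobase of exon Slc25a4 and Slc25a3 stood at 3576 ± 303 and 564 ± 31 CPM in the controls and at 1305 ± 105 and 399 ± 19 CPM in the libraries labelled knockout.

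The amino acid carriers went both ways, with 2 of 8 higher, 3 lower and 3 not past the threshold (23.6% of all genes were higher and 21.1% lower). The aspartate/glutamate carriers are the steps of the malate-aspartate shuttle that move aspartate out of the matrix. The muscle form Slc25a12 (aralar) stood at 494, 534, 539 and 490 CPM in the controls and at 309, 325, 396 and 303 CPM in the libraries labelled knockout. It was lower in all 4 of the latter and fell by 0.62 on the log2 scale (SE 0.10, adjusted p = 3.36e-04), whereas with library totals alone its log2 fold change was 0.04 (adjusted p = 0.660). Slc25a13 (citrin), the liver form, was near the limit of the data, with 5, 10, 5 and 12 reads in the controls and 28, 23, 36 and 29 in the libraries labelled knockout. Those reads came to 0.404, 0.655, 0.358 and 0.756 CPM and to 1.17, 1.053, 1.49 and 1.15 CPM. The log2 fold change was 1.13 (SE 0.28, adjusted p = 0.00622), and the pooled ratio was 2.19 (95% interval of the counts 1.47 to 3.35, which covers counting error only). This call was lost in DESeq2 (adjusted p = 0.0133), with the adipocyte covariate (adjusted p = 0.0245) and when any library but control 4 was left out (adjusted p 0.0111 to 0.0215). The log2 ratio of Slc25a12 to Slc25a13 counts, which is free of scaling, differed by -1.78 (exact permutation p = 0.0286, adjusted p = 0.0381). This p too was fixed by the separation of both genes in opposite directions. Even in the libraries labelled knockout Slc25a12 counts were 270-fold those of Slc25a13.

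Slc25a18 and Slc25a22 carry glutamate. Slc25a18 had 1, 2, 3 and 1 reads in the controls, none above the 3 reads that a count of 0 allows at 95%, and 19, 7, 14 and 20 reads in the libraries labelled knockout. In CPM these were 0.0808, 0.131, 0.215 and 0.0630 in the controls and 0.792, 0.321, 0.578 and 0.795 in the libraries labelled knockout. All of the latter were higher, with a log2 fold change of 2.30 (SE 0.49, adjusted p = 0.00247) and a pooled ratio of 5.18 (95% interval of the counts 2.36 to 13.4), but the filter on total reads had already fixed this direction, so these values are a description. Slc25a22 ranged from 15.7 to 26.1 and from 20.4 to 32.1 CPM and was not called. The difference of their log2 ratio was 1.69 with 0.5 added to each count and 1.045 with 2 added, so it rested on how the few Slc25a18 reads were treated. The filter bears on the direction of this ratio too, so its permutation test is no support and the values are a description.

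Slc25a15, which carries ornithine, fell by 0.46 (SE 0.07, adjusted p = 3.72e-04), from 22.0 ± 1.0 to 15.95 ± 0.69 CPM (SD, n = 4), and had a log2 fold change of 0.21 with library totals alone. Slc25a29, which carries basic amino acids, fell by 0.99 (SE 0.20, adjusted p = 0.00165), from 5.13 ± 0.68 to 2.58 ± 0.62 CPM. The glycine carrier Slc25a38, needed for the first step of heme synthesis, ranged from 12.4 to 15.7 CPM and from 14.2 to 18.1 CPM and was not called. The branched-chain amino acid carrier Slc25a44 ranged from 41.8 to 44.7 CPM and from 38.8 to 49.7 CPM, with a log2 fold change of -0.01 (SE 0.08, adjusted p = 0.951), which was 0.66 with library totals alone.

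Of the 2 iron carriers 1 passed the threshold. Slc25a37 (mitoferrin 1), best known from red cell precursors, rose by 0.58 on the log2 scale (SE 0.09, adjusted p = 2.98e-04), from 28.4 ± 3.2 to 42.3 ± 2.1 CPM (SD, n = 4). Slc25a28 (mitoferrin 2), the form of other tissues, ranged from 24.8 to 31.7 CPM and from 31.9 to 37.8 CPM and was not called (log2 fold change 0.27, SE 0.09, adjusted p = 0.0295). The ratio of the mitoferrins overlapped between the groups (difference of log2 ratio -0.31, exact permutation p = 0.143). None of 5 red cell genes (Hba-a1, Hba-a2, Hbb-bs, Hbb-bt and Alas2) was called, and their summed level ran from 41.1 to 102 CPM in the controls and from 8.61 to 96.7 CPM in the libraries labelled knockout. Among 10 measured mitochondrial genes of iron and heme metabolism the direction was the other one, with 8 lower, none higher and a median of -0.50, while with library totals alone 2 were higher, none was lower and the median was 0.17. They included Alas1, the first enzyme of heme synthesis (-0.87, adjusted p = 3.00e-04) and Fech, the last (-0.48, adjusted p = 2.92e-04).

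Slc25a32 carries folate into the matrix. It ranged from 8.88 to 10.5 CPM in the controls and from 6.15 to 11.5 CPM in the libraries labelled knockout, with a log2 fold change of -0.12 (SE 0.20, adjusted p = 0.604). The enzymes that use folate inside mitochondria behaved otherwise, with 4 of 6 higher, none lower and a median of 1.68. Mthfd2 rose by 5.65 on the log2 scale (SE 0.22, adjusted p = 8.10e-08), from 5.06 ± 1.196 to 256 ± 54 CPM (SD, n = 4), Mthfd1l by 4.21, Aldh1l2 by 2.02 and Shmt2 by 1.34. The carrier was thus not called while most of the enzymes that work on its substrate were.

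Among the 8 carriers of cofactors, 1 was higher, 2 were lower and 5 did not pass the threshold (23.6% of all genes were higher and 21.1% lower). Slc25a39, which brings glutathione into mitochondria, stood at 63.3, 62.5, 56.8 and 56.3 CPM in the controls and at 125, 105, 109 and 126 CPM in the libraries labelled knockout. All of the latter were higher, and the level rose 1.95-fold (log2 fold change 0.96, SE 0.08, adjusted p = 6.56e-06). Its relative Slc25a40 was not called, at 5.49 to 6.66 CPM and 5.63 to 6.68 CPM, and the log2 ratio of their counts differed by 0.98 between the groups (exact permutation p = 0.0286, adjusted p = 0.0381). The coenzyme A carrier Slc25a42 fell by 0.83 (SE 0.13, adjusted p = 4.08e-04), from 46.9 ± 6.1 to 26.4 ± 4.6 CPM (SD, n = 4), and had a log2 fold change of -0.17 (adjusted p = 0.240) with library totals alone. The S-adenosylmethionine carrier Slc25a26, which supplies methyl groups to the matrix, fell by 0.72 (SE 0.12, adjusted p = 4.21e-04), from 27.3 ± 1.8 to 16.5 ± 2.6 CPM. Its gene shares 127 bases of its span with Lrig1 on the opposite strand, which also fell, by 1.56 (adjusted p = 1.36e-06). Whether the counting used strand is not given in the sources used here, and the part of Lrig1 reads in this value was not tested.

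The NAD+ carrier Slc25a51 ranged from 97.8 to 103 CPM in the controls and from 67.4 to 92.5 CPM in the libraries labelled knockout. It did not overlap between the groups yet missed the threshold (log2 fold change -0.32, SE 0.09, adjusted p = 0.0120). It was called with RLE size factors (adjusted p = 0.00402), with DESeq2 (adjusted p = 3.84e-04) and without library 1 or 3 labelled knockout (adjusted p = 0.00161 and 0.00930). Slc25a16, linked to the coenzyme A supply of the matrix, ranged from 32.7 to 41.1 CPM and from 29.8 to 34.5 CPM. The peroxisomal carrier Slc25a17, which sits outside mitochondria, ranged from 12.5 to 14.8 CPM and from 14.0 to 21.1 CPM (adjusted p = 0.0370). Neither passed the threshold.

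The carboxylate carriers exchange malate, oxoglutarate and related acids. Slc25a11, the oxoglutarate/malate carrier and the other carrier of the malate-aspartate shuttle, fell by 0.79 on the log2 scale (SE 0.07, adjusted p = 1.07e-05), from 246 ± 17 to 142 ± 6 CPM (SD, n = 4), and had a log2 fold change of -0.12 (adjusted p = 0.131) with library totals alone. Of the 4 shuttle enzymes 1 was called (1 lower and 3 higher with library totals alone). Mdh2, the malate dehydrogenase of the matrix, fell by 1.01 (adjusted p = 3.62e-06), while Got1, Got2 and Mdh1 had log2 fold changes of 0.30, 0.13 and -0.33 and were not called. Slc25a10, the dicarboxylate carrier, stood at 19.1, 9.56, 2.93 and 15.8 CPM in the controls and at 43.0, 24.9, 19.9 and 31.7 CPM in the libraries labelled knockout. The groups did not overlap, and it was not called (log2 fold change 1.34, SE 0.44, adjusted p = 0.0230). Slc25a10 is known as abundant in fat, and the summed level of 7 adipocyte genes was 1497, 996, 249 and 1462 CPM in controls 1 to 4 and 2591, 1447, 712 and 1553 CPM in the libraries labelled knockout. In each group the order of the libraries by this sum was also their order by Slc25a10. The library with the lowest sum in each group was also the lowest in other carriers. Among them were Slc25a5, Slc25a22 and Slc25a23, and Slc25a25, which fell. In the controls the carriers just named did not follow the whole order. None of the 7 adipocyte genes was called. With their mean log2 CPM as a covariate the log2 fold change of Slc25a10 was 0.72 (adjusted p = 0.00391), and the part of fat cells in its level was not tested. The log2 ratio of Slc25a10 to Slc25a11 counts differed by 2.36 (exact permutation p = 0.0286, adjusted p = 0.0381), a p again fixed by the separation of both genes in opposite directions. Without control 3 the log2 fold change of Slc25a10 was 1.02 (adjusted p = 0.0162).

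**Figure D3:**
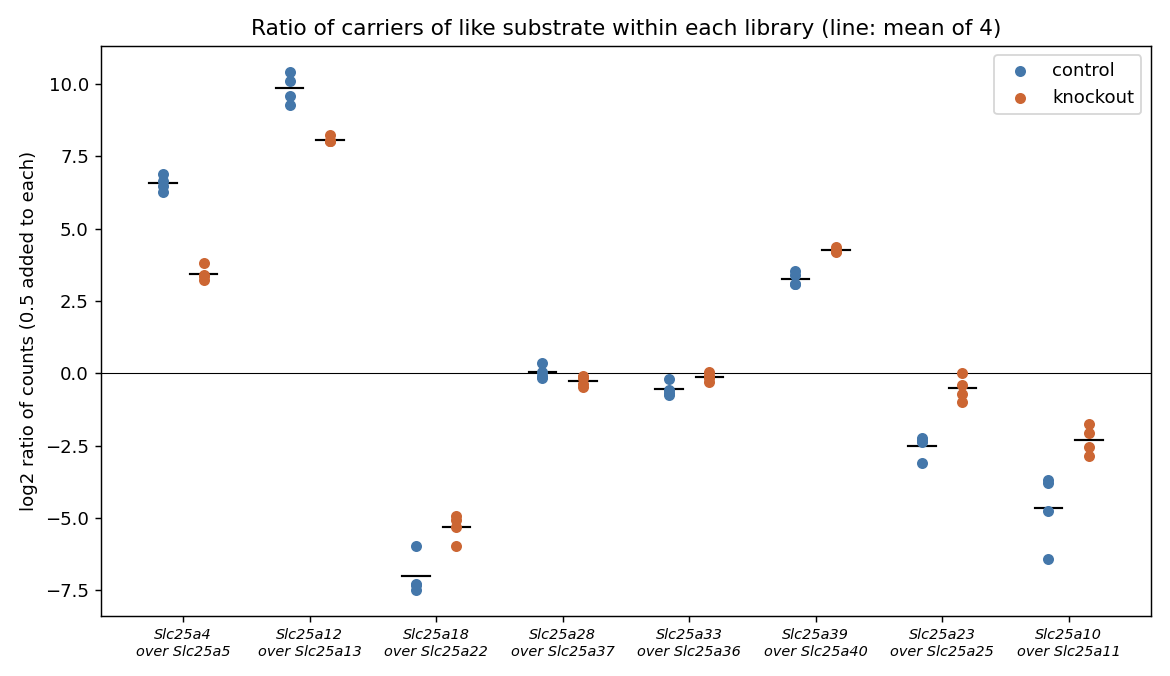
Log2 ratio of the read counts of 8 pairs of carriers within each library (vertical axis, 0.5 added to each count), for controls and libraries labelled knockout; points are libraries and lines are means of 4. The groups do not overlap in 6 of the 8 pairs, and the widest gap is that of Slc25a4 over Slc25a5, with means of 6.58 and 3.44. The mitoferrins (Slc25a28 over Slc25a37) and Slc25a33 over Slc25a36 overlap. Slc25a18 over Slc25a22 is among the 6, but the filter on total reads had fixed the direction of Slc25a18. For Slc25a4 over Slc25a5, Slc25a12 over Slc25a13 and Slc25a10 over Slc25a11 the gap follows from the separation of the single genes.

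Of the 3 relatives of the uncoupling proteins, 1 was lower and 2 did not pass the threshold. Slc25a30 stood at 11.6, 6.09, 6.73 and 7.81 CPM in the controls and at 3.002, 3.02, 2.31 and 2.78 CPM in the libraries labelled knockout. The latter were all below the lowest control, and it fell by 1.53 on the log2 scale (SE 0.21, adjusted p = 1.53e-04). Slc25a14 ranged from 1.197 to 2.504 CPM and from 2.23 to 3.47 CPM, and Slc25a27 from 10.7 to 13.0 CPM and from 9.02 to 13.0 CPM. Among 5 family members that carry other symbols, 1 was called (1 lower and 3 higher with library totals alone). It was Ucp3, the muscle uncoupling protein, which fell by 3.11 (SE 0.38, adjusted p = 7.21e-05), from 399 ± 98 to 46.1 ± 24.3 CPM (SD, n = 4), while Ucp1, Ucp2, Mtch1 and Mtch2 were not called under TMM.

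Slc25a46 differs from the rest in sitting in the outer membrane, where it is linked to mitochondrial fusion and fission. It ranged from 66.1 to 70.5 CPM in the controls and from 60.2 to 62.8 CPM in the libraries labelled knockout, a small and even difference that missed the threshold (log2 fold change -0.15, SE 0.06, adjusted p = 0.0405) but was called in DESeq2 (adjusted p = 0.00431).

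The 6 members whose substrate is unsettled held 1 that was higher, 1 that was lower and 4 not past the threshold (23.6% of all genes were higher and 21.1% lower). Slc25a35 stood at 5.98, 7.33, 3.86 and 7.81 CPM in the controls and at 27.4, 18.9, 11.7 and 19.8 CPM in the libraries labelled knockout. Every library labelled knockout was above every control, and it rose 3.09-fold (log2 fold change 1.63, SE 0.27, adjusted p = 5.71e-04). Its lowest library in each group was again the one lowest in adipocyte genes, as for several carriers named above. With the mean of the adipocyte genes as a covariate its log2 fold change was 1.22 (adjusted p = 8.57e-04), and the part of fat cells in its level was not tested. The gene shares 32 bases of its span with Rangrf on the opposite strand (-0.24, adjusted p = 0.0689). Slc25a47 stood at 3.55, 5.30, 4.01 and 3.97 CPM in the controls and at 2.29, 2.43, 1.57 and 2.03 CPM in the libraries labelled knockout. It did not overlap and fell by 1.02 (SE 0.19, adjusted p = 0.00110). Slc25a34 ranged from 8.16 to 18.6 CPM and from 6.002 to 7.78 CPM and missed the threshold (adjusted p = 0.0141), though it was called in DESeq2 (adjusted p = 0.00140). Slc25a53 ranged from 0.327 to 0.787 CPM and from 1.14 to 1.28 CPM (adjusted p = 0.0117), and Slc25a45 from 1.65 to 2.58 CPM and from 1.53 to 2.38 CPM. Slc25a48 had 3, 1, 0 and 6 reads in the controls and 28, 17, 1 and 13 in the libraries labelled knockout, and its groups overlapped (log2 fold change 1.81, SE 0.90, adjusted p = 0.108; 0.11 with the adipocyte covariate). Only 10 of its 69 reads were in the controls, so it too is in the table through the other group.

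**Figure D4:**
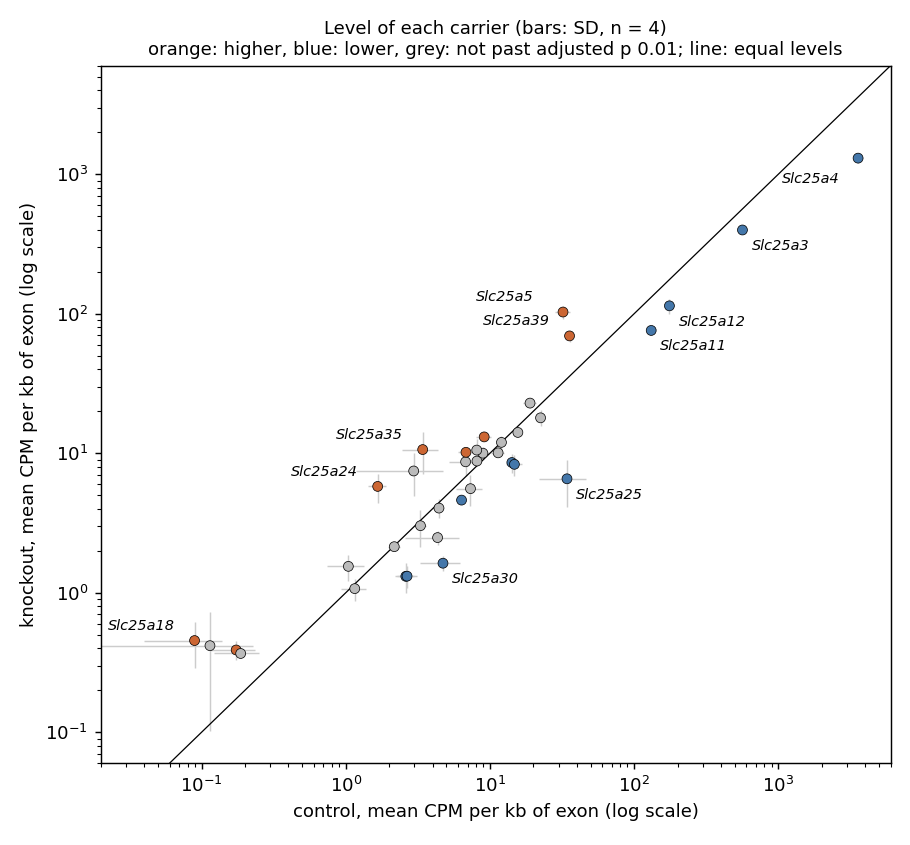
Mean level of 38 of the 39 carriers per kilobase of exon in the controls (horizontal axis) and in the libraries labelled knockout (vertical axis), in CPM per kb on log scales with SD of 4 libraries; the line marks equal levels. Slc25a4 stands alone at the top at 3576 and 1305 CPM per kb, followed in both groups by Slc25a3 and Slc25a12, while Slc25a5 moves from 7th to 4th place; the scaling sets the height of the whole cloud over the line, and Slc25a3 and Slc25a12 rise above the line with library totals alone.

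Per kilobase the order of the most abundant carriers was Slc25a4, Slc25a3, Slc25a12, Slc25a11 and Slc25a39 in the controls and Slc25a4, Slc25a3, Slc25a12, Slc25a5 and Slc25a11 in the libraries labelled knockout. In the controls Slc25a12 (176 ± 9 CPM per kb) stood above Slc25a11 (131 ± 9) by more than their spread. The next places were held by Slc25a39 (35.7 ± 2.2), Slc25a25 (34.2 ± 12.4) and Slc25a5 (32.1 ± 3.9), which did not differ beyond theirs. In the libraries labelled knockout Slc25a12 (114 ± 15) and Slc25a5 (103 ± 11) did not differ beyond their spread, and Slc25a11 (75.9 ± 3.4) and Slc25a39 (69.4 ± 6.3) did not either. The largest moves in rank were those of Slc25a25, from 6th to 23rd, and Slc25a35, from 27th to 13th.

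The other transporters of the inner and outer membrane gave 3 higher, 6 lower and 8 not called among 17 genes. Their median was -0.16 (with library totals alone 10 higher and 2 lower, median 0.51 beside 0.73 for all genes). Lower were the pyruvate carrier subunits Mpc1 (-0.35, adjusted p = 0.00737) and Mpc2 (-0.92, adjusted p = 2.26e-05), the outer membrane channels Vdac1 (-0.98, adjusted p = 2.71e-05) and Vdac2 (-0.42, adjusted p = 0.00198), and Sfxn3 and Micu3. Among those higher were the calcium uniporter pore Mcu (0.70, adjusted p = 6.18e-06) and its gatekeeper Micu2 (0.67, adjusted p = 9.05e-06). With library totals alone Vdac1 and Micu3 stayed lower, and Mpc2 and Sfxn3 kept their sign and lost the call. Mpc1 (0.32) and Vdac2 (0.25) changed sign under that setting, and Mcu and Micu2 stayed higher. Of 8 genes of the route that inserts carriers into the inner membrane, 2 rose, 2 fell and 4 were not called. Their median was 0.19 (with library totals alone 7 higher and none lower, where 8498 of all 14012 genes were higher). The small carrier chaperone Timm10 rose by 1.195 (SE 0.08, adjusted p = 1.04e-06) and Timm8a1 by 1.10, while the channel subunit Timm22 fell by 0.67 (SE 0.09, adjusted p = 1.66e-04) and Timm8b by 0.44. Tomm70a, the outer membrane receptor that carriers use, was not called. With library totals alone Timm22 was at -0.00136 (adjusted p = 0.988) and Timm8b was higher, at 0.22 (adjusted p = 0.00917). Timm10, Timm8a1 and Tomm70a were higher under that setting too.

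Markers of the other cells of muscle moved as well, and their part in the carrier values was not tested. All 6 endothelial genes were lower, with control sums of 284 to 422 CPM, against 205 to 233 CPM, but none was called with library totals alone (median -0.03). Of 6 fibroblast genes 4 were lower and 2 were not called (1 lower and 1 higher with library totals alone), with sums of 1667 to 2532 CPM and 665 to 1023 CPM. Of 4 satellite cell genes 3 were higher (Myf5, Vcam1 and Cdh15), with sums of 31.6 to 34.8 CPM and 44.8 to 64.3 CPM. Of 7 macrophage genes 1 (Cd68) was higher (5 with library totals alone), with sums of 65.0 to 161 CPM and 125 to 228 CPM, and none of 6 Schwann cell genes was called (2 higher with library totals alone).

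Promoter sequences, from RefSeq on GRCm38.p6 and covering 250 bases before to 50 after the start of transcription, matched 30 of the 39 carriers with 39 promoters. For 22 of these 30 carriers the bases after the start also lay near the start of a GENCODE transcript. They were searched on both strands for 3 motifs, chosen after the values were known. The composite site TGATGNAAN, bound by ATF4 with C/EBP factors, lay in 0 of the 39 and in 3.95% of all promoters. The site TCAAGGTCA of the estrogen-related receptors lay in 0 and in 0.423%. The palindromic E-box CACGTG lay in 6 of the 39 promoters, of 5 carriers, and in 7.15% of all promoters. The promoters of Slc25a14 that hold it overlap and share a single site (chrX:48623384-48623409), which is thus counted more than once. These carriers were Slc25a33 and Slc25a13, which rose, Slc25a15, which fell, and Slc25a36 and Slc25a14, which were not called. The call of Slc25a13 was lost in several fits, and Slc25a15 changed sign with library totals alone. An absent match says only that these letters are not in this window.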

How the data were processed

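Counts per gene were deposited by the authors for 4 libraries labelled knockout and 4 labelled control, from 8 mice with different animal labels. Per the study's methods and the submitters' processing notes, reads were demultiplexed with bcl2fastq 2.20.0.422, trimmed with cutadapt, mapped to GRCm38 with STAR 2.5.4b and counted on exons with Rsubread, without duplicate, chimeric or multimapping reads. Genes with few reads were left out by the authors, and the lowest total in the table was 51 reads. The annotation release and the use of strand in counting are not given in the sources used here. The deposited exon widths gave levels per kilobase. The FPKM and the DESeq2 columns of the table, which hold the authors' fold changes and p-values, were not used.

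Every gene of the table (14012) was tested with R 4.3.3 and edgeR 4.0.16 (glmQLFit and glmQLFTest, TMM scaling, group as the only term, Benjamini-Hochberg over all genes, adjusted p under 0.01). SE is the absolute log2 fold change over the square root of F. CPM are over TMM-scaled totals. The log2 ratios of 8 carrier pairs, with 0.5 added to each count, were compared by two-sided exact permutation over 70 assignments. The scripts were tested on simulated data. That simulation was not built with a shift in RNA composition between the groups, so it did not test the scaling. The members, lists, pairs and motifs were chosen with earlier results of these data known. Every carrier but 1 is named, and that 1 is counted but not reported here by itself. Those past the threshold with a 2-fold change or more, and the 3 most abundant per kilobase, have each library's value, and other called carriers have the fold change. Library values of Slc25a39 and Slc25a10, reads of Slc25a48, the neighbours Naif1, Lrig1 and Rangrf and the pseudogene Slc25a5-ps were added after their values were seen. Over the 12 pairs of replicates the chi-square of the counts was 16.8 to 42.5 per degree of freedom, far above counting noise, so none was counted as a duplicate. Coding sequences and windows of 75 bases came from GENCODE M21 on GRCm38. Alternatives were other scalings, a filter on low counts, DESeq2 1.42.0, a replicate block, an adipocyte covariate, an adjusted p of 0.05, another pseudocount and leaving out each library.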

Additional observations from a re-analysis of the deposited data

Results flagged for a closer look

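The level of a carrier in 1 library stood apart from the other 3 of its group in 3 of the 78 groups of 4 tested (39 carriers in 2 groups), and chance alone flags about 1 in 20. Slc25a24 was 6.87 CPM in control 4, where the other controls were 5.09 to 5.37 CPM. Slc25a3 was 783.2 CPM in control 4, where the others were 872.8 to 879.2 CPM. Slc25a11 was 132.6 CPM in library 4 labelled knockout, where the others were 144 to 146.2 CPM. The carriers kept their calls when that library was left out.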

How the results depend on the processing

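The 19 carrier calls numbered 18 to 24 under the other fits and 26 at an adjusted p of 0.05. With library totals alone the carriers higher numbered 21 and those lower 3 (8498 and 873 of all 14012 genes), and 11 of the 19 calls remained. Under each of the other 14 fits 18 or 19 of the 19 calls remained, and the calls lost were Slc25a13 and, where it was not tested under the low-count filter, Slc25a18. With library totals alone 12 log2 fold changes of the carriers named changed sign, namely Slc25a23 (0.27), Slc25a3 (0.17), Slc25a12 (0.0404), Slc25a15 (0.21), Slc25a44 (0.66), Slc25a32 (0.55), Slc25a16 (0.49), Slc25a40 (0.64), Slc25a51 (0.35), Slc25a27 (0.54), Slc25a46 (0.52) and Slc25a45 (0.55). That setting moves every log2 fold change upwards by about the same amount, since the scaling factors differ between the groups. With upper-quartile scaling the signs of Slc25a44 (0.0238) and Slc25a40 (0.0101) changed, and with the adipocyte covariate that of Slc25a40 (0.0101). When single libraries were left out, Slc25a44 ranged from -0.0969 to 0.0180, Slc25a40 from -0.0896 to 0.0158 and Slc25a45 from -0.232 to 0.00383. Slc25a18 over Slc25a22 was 1.045 with 2 added to each count. Same-numbered libraries did not all deviate together (r = 0.21, 0.03, 0.51 and 0.16, beside highest values with another number of 0.03, 0.16, -0.07 and 0.16), so the numbers were not taken as pairs. The fit with a replicate block called 21 carriers, 8 higher and 13 lower. It kept 18 of the 19 calls, lost Slc25a13 and added Slc25a23, Slc25a10 and Slc25a34. With 3 libraries left in a group the exact test of a ratio cannot go below 0.0571, and by replicate number not below 0.125. Counts below about 3 reads limit Slc25a18 and Slc25a48.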
